A study of Homo sapiens with 6 samples.

Results

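The miR-200 family and miR-205 were examined in HK-2, a human cell line from the epithelium of the kidney proximal tubule that was immortalised with papillomavirus genes. The members were the probes named hsa-miR-200a, hsa-miR-200b, hsa-miR-200c, hsa-miR-141, hsa-miR-429 and hsa-miR-205, written below without the species prefix, which are 6 of the 1719 human microRNA (miRNA) probes on the array. They were chosen by name, as 2 gene clusters of the miR-200 family and the single miR-205 gene. All cells were kept in 0.2% foetal calf serum. The 3 control samples were labelled as untreated, and the 3 treated samples received aristolochic acid, a compound of Aristolochia plants that binds to DNA and is toxic to kidney tubules, at 5 µg/ml for 48 h. Total RNA from each sample was hybridised to 1 single-colour array. No label says whether replicates were cultured separately. The p-values therefore set the group difference against a spread between these samples that may be only technical.

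MiRNAs are short RNAs that pair with messenger RNAs, mainly through the seed at bases 2 to 8, and lower their translation or stability. The miR-200 family and miR-205 are known for keeping epithelial cells epithelial, because they repress ZEB1 and ZEB2, transcription factors that switch off the adhesion gene CDH1 (E-cadherin) during the epithelial-mesenchymal transition (EMT). ZEB1 and ZEB2 in turn repress the miR-200 genes, so the factors and the miRNAs form a mutual repression loop. In kidney tubules this transition has been studied as a part of fibrosis.

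The mature sequences show how the members relate, and they are printed 5′ to 3′ from RefSeq (GRCh38.p14) with the seed in capitals. All 6 members were matched in RefSeq.
miR-200b: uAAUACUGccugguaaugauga
miR-200c: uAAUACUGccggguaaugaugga
miR-429: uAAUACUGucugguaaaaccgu
miR-200a: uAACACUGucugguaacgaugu
miR-141: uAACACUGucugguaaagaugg
miR-205: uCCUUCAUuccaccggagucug

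The seed AAUACUG was shared by miR-200b, miR-200c and miR-429, and the seed AACACUG by miR-200a and miR-141. No other human mature miRNA in the RefSeq table had either of them, or the miR-205 seed CCUUCAU. The seed groups cut across the gene clusters. The genes MIR200B, MIR200A and MIR429 lie within 1984 bases on chromosome 1 (chr1:1167104-1169087), inside the long non-coding RNA gene MIR200BHG. MIR200C and MIR141 lie within 493 bases on chromosome 12 (chr12:6963699-6964191), inside MIR200CHG. MIR205 lies at chr1:209432133-209432242, inside MIR205HG. Counting from the 5′ end over the first 22 bases, miR-200b and miR-200c differed at 2 positions, U11G and A22G. MiR-200a and miR-141 also differed at 2, C17A and U22G, whereas miR-205 had between 5 and 7 of 22 bases in common with any family member. Whether a probe also bound its nearest relative was not tested.

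The promoters of the cluster host genes are shown because the motif CACCTG, an E-box that ZEB1 and ZEB2 are known to bind, lies in them. CACCTG and its reverse complement CAGGTG were searched from 250 bases before to 50 after each RefSeq start, and matches are in capitals. MIR200BHG (plus strand, chr1:1162627-1162926) had 2 matches and MIR200CHG (plus strand, chr12:6962995-6963294) had 1.
MIR200BHG: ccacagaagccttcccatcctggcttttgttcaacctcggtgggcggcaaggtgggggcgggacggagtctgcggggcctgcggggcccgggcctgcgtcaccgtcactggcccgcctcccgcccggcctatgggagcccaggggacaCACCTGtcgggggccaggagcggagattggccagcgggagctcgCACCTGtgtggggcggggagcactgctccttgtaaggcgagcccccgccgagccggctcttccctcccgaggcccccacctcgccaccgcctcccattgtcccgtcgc
MIR200CHG: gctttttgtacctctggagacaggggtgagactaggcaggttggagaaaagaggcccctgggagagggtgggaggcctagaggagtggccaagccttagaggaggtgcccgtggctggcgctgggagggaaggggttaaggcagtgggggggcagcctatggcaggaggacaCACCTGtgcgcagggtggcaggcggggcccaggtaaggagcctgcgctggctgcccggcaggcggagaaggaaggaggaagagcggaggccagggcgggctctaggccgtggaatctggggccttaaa

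The MIR205HG window held 0 matches. Of 35116 RefSeq promoter windows of this length, 20.6% held at least 1 match and 3.49% at least 2. A match is a description of the letters and not a measurement of binding in these cells.

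The treated arrays were brighter than the control arrays, which touches every result. The constant background that the authors subtracted ranged from 50.6 to 51.8 in the control group and from 53.3 to 61.8 in the treated group. The mean of the spike-in spots was higher by 0.26 on the log2 scale in the treated group (SD 0.12 and 0.13, n = 3 per group, exact permutation p = 0.1, 2-sided, the smallest that 3 against 3 allows). The background-subtracted intensity of the 503 human probes detected on all 6 arrays was higher by a median of 0.45 (log2), and 95.2% of them lay above 0. Before scaling, 4 of the 5 members detected on all arrays (miR-200b, miR-200a, miR-429 and miR-200c) were higher in every treated sample than in every control sample, as 53.7% of the 503 probes were. A labelling or scanning difference cannot be told apart from the treatment. Values are therefore given on a pair of scales. Scaled intensity is the background-subtracted intensity with the median of those 503 probes set to 25 on each array. The test used quantile-normalized log2 intensity with an offset of 50, which shrinks the differences of dim probes. A probe was called when its adjusted p in limma (Benjamini-Hochberg over 625 tested probes) was under 0.05, and 0.96% of the tested probes were called in either direction (0.8% higher and 0.16% lower). Levels are not compared between members, because probes differ in brightness.

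In the miR-200c cluster on chromosome 12, neither member passed the test. MiR-200c lay higher in every treated sample than in every control sample, and miR-141 was not detected on every control array. Of the 503 probes detected on all arrays, 8.75% were higher without overlap on the scaled intensity and 14.1% were lower. MiR-200c, which carries the AAUACUG seed, had scaled intensities of 29.0, 36.1 and 29.7 in control replicates 1, 2 and 3. In the treated replicates it had 52.2, 42.7 and 51.1. The lowest treated sample thus lay above the highest control sample. The means were 31.6 ± 3.94 in control and 48.7 ± 5.18 in treated samples (SD, n = 3), and the ratio of geometric means was 1.54. The fitted log2 difference of miR-200c was 0.22 (SE 0.040, 95% interval 0.12 to 0.31, adjusted p = 0.0687 in limma), the 22nd highest difference among the 625 probes. Before any scaling, the background-subtracted intensity of the control replicates lay between 16.96 and 22.3 and that of the treated replicates between 39.8 and 45.9, a 2.22-fold difference. Of the 503 probes, 23 had a larger difference.

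MiR-141, the neighbour of miR-200c with the seed AACACUG, was dim. Its raw intensity was 55.0, 55.9 and 48.1 on the control arrays, where the lowest intensities that the authors kept as detected were 53.3, 54.2 and 54.0. It was thus detected on only 2 of 3 control arrays, and on control replicate 3 it lay below the background. On the treated arrays it was 71.7, 70.2 and 72.3, against lowest kept values of 66.7, 57.2 and 62.1, and it was detected on all 3. The scaled values were 6.27, 6.50 and -4.30 in the control replicates and 11.3, 18.1 and 17.2 in the treated replicates, with means of 2.82 ± 6.17 and 15.5 ± 3.72. No fold is given, because 1 control value is below 0. The fitted log2 difference was 0.22 (SE 0.057, 95% interval 0.085 to 0.36, adjusted p = 0.138 in limma). MiR-141 entered the test through the treated group alone, so its detection there and its difference are not separate observations.

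**Figure D1:**
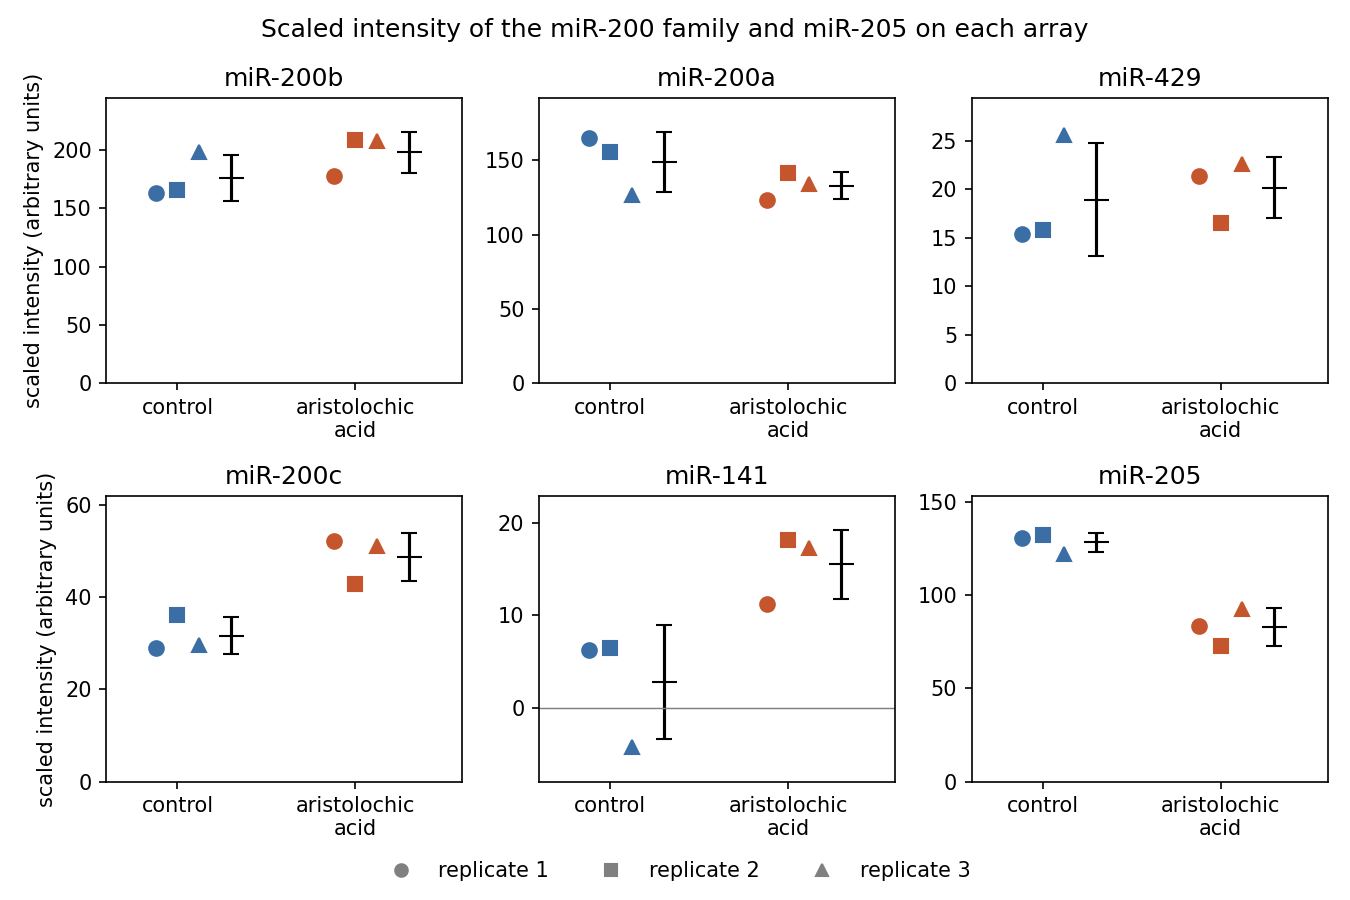
Scaled intensity (arbitrary units, linear axes) of each member on the 3 control and 3 aristolochic acid arrays, with 1 point per array and the group mean ± SD in black. The groups are apart for miR-200c and miR-205 and overlap for miR-200b, miR-200a and miR-429. They are also apart for miR-141, which was not detected on control replicate 3.

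In the miR-200b cluster on chromosome 1, the groups overlapped for all 3 members and none passed the test. MiR-200b had scaled intensities of 163, 166 and 198 in control and 178, 208 and 208 in treated samples. Control replicate 3 lay within the treated range, and the means were 176 ± 19.6 and 198 ± 17.3. The fitted log2 difference of miR-200b was 0.09 (SE 0.075, 95% interval -0.087 to 0.27, adjusted p = 0.620 in limma). The difference of miR-200c lies within this interval. Leaving out 1 array gave 0.036 without control replicate 1, 0.15 without control replicate 3, 0.14 without aristolochic acid replicate 1 and 0.028 without aristolochic acid replicate 2.

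MiR-200a, which lies between MIR200B and MIR429 in the genome, had scaled intensities of 165, 156 and 126 in control and 123, 142 and 134 in treated samples. Control replicates 1 and 2 were the highest, and control replicate 3 lay within the treated range. The means were 149 ± 20.1 and 133 ± 9.08, and the fitted log2 difference was -0.08 (SE 0.090, 95% interval -0.29 to 0.14, adjusted p = 0.729 in limma). Without 1 array the difference ran from -0.15 (without control replicate 3) to -0.022 (without control replicate 1). MiR-200a therefore lay on the other side of 0 from miR-200b, a sign that depended on the scaling, as given below.

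MiR-429, the remaining member of the chromosome 1 cluster, was close to background. Before scaling, the control replicates had background-subtracted intensities of 10.07, 9.74 and 14.6 and the treated replicates 18.8, 15.4 and 18.96, and it was detected on all 6 arrays. The scaled intensities were 15.4, 15.7 and 25.6 in control and 21.4, 16.6 and 22.6 in treated samples, so control replicate 3 was the highest of all. The means were 18.9 ± 5.79 and 20.2 ± 3.18, and the fitted log2 difference was 0.03 (SE 0.058, 95% interval -0.11 to 0.16, adjusted p = 0.835 in limma). Control replicate 3 was the highest control sample for miR-429 and miR-200b and the lowest for miR-200a.

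MiR-205, which belongs to no miR-200 cluster, fell and was the only member of 6 that passed the test. Of all tested probes 0.16% were called lower, which was miR-205 alone. Its scaled intensities were 131, 132 and 122 in control and 83.3, 72.7 and 92.7 in treated samples. The highest treated sample lay well below the lowest control sample, and the means were 128 ± 5.28 and 82.9 ± 10.02. The fitted log2 difference of miR-205 was -0.32 (SE 0.042, 95% interval -0.42 to -0.22, adjusted p = 0.0194 in limma), the 4th lowest of 625 differences. On the scaled intensity the control level was 1.56 times the treated level.

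The fall of miR-205 was a fall relative to the other probes. Before scaling, control replicates 1, 2 and 3 had background-subtracted intensities of 85.2, 81.8 and 69.96, and the treated replicates had 73.3, 67.6 and 77.9. On that scale the groups overlapped, and the log2 difference was -0.11 while the median of the 503 probes was 0.45. The call was lost in 5 of the 6 fits that left out 1 array, with adjusted p between 0.0521 and 0.0968 in limma. It remained without aristolochic acid replicate 3 (adjusted p = 0.0287 in limma), and the log2 difference ran from -0.35 to -0.29 over all 6 fits.

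**Figure D2:**
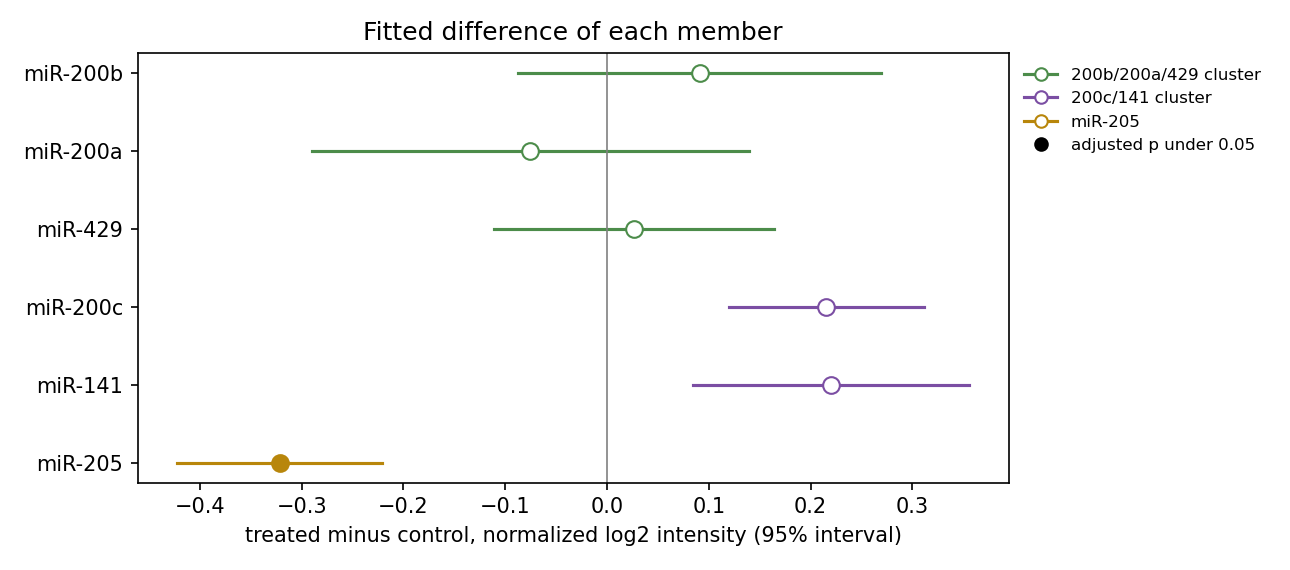
Fitted difference of each member (treated minus control, quantile-normalized log2 intensity with an offset of 50) with its 95% interval from limma, coloured by gene cluster. MiR-205 alone is filled for an adjusted p under 0.05, and the intervals of miR-200c and miR-141 lie above 0. MiR-141 entered the test through the treated group alone.

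Over the whole set, 1 of 6 members was called. MiR-141, which entered the test through the treated group, is left out of the following counts. Of the 5 members detected on all arrays, miR-200c (higher) and miR-205 (lower) had groups without overlap on the normalized scale. For comparison, the groups lay apart for 19.6% of the 624 probes without a missing value, 8.81% higher and 10.7% lower. These 624 also hold probes that entered the test through 1 group alone. Of the 503 probes detected on all arrays, 8.75% were higher and 14.1% lower without overlap on the scaled intensity. Among these 5 members 3 fitted differences were above 0 and 2 below, with a median of 0.03 on the log2 scale. Among the 503 probes detected on all arrays 230 were above 0 and 273 below, with a median of -0.01. The 3 members with the seed AAUACUG had differences of 0.22 (miR-200c), 0.09 (miR-200b) and 0.03 (miR-429), and the members with the seed AACACUG had 0.22 (miR-141) and -0.08 (miR-200a).

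Whether members of different clusters changed unequally was tested on log2 ratios of 2 members within each array, which do not depend on the scaling between arrays but do depend on the background subtracted. The 5 members detected on all arrays gave 7 such pairs, and an exact permutation test of 3 against 3 cannot give a p below 0.1. With the p-values of these 7 pairs, a p of 0.1 became 0.14 after Benjamini-Hochberg adjustment. The ratio of miR-200c to miR-205 was -2.17, -1.87 and -2.04 on the control arrays and -0.68, -0.77 and -0.86 on the treated arrays. It moved furthest of the 7, by 1.26 (means -2.03 ± 0.15 and -0.77 ± 0.092), or 2.40-fold, and the groups were far apart compared with their spread (exact permutation p = 0.1, adjusted p = 0.14). With the offset of 50 and quantile normalization the same ratio moved by 0.54, and with an offset of 16 by 0.78. These values of the ratio set 1 probe's change against another's and say nothing of the order of their levels.

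The ratios of the chromosome 1 members to miR-205 were also higher in the treated group. The ratio of miR-200b to miR-205 was 0.32, 0.33 and 0.70 on the control arrays and 1.096, 1.52 and 1.17 on the treated arrays, a difference of 0.81 (exact permutation p = 0.1, adjusted p = 0.14). The difference was 0.76 for miR-429 to miR-205 and 0.48 for miR-200a to miR-205, each without overlap and with the same exact permutation p. In all 4 pairs with miR-205 the ratio was thus higher on every treated array than on every control array. On the background-subtracted scale 492 of the 503 probes detected on all arrays had a larger difference than miR-205. A rise relative to miR-205 is therefore not particular to the family.

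Within the family, the ratio of miR-200a to miR-200c was 2.51, 2.11 and 2.09 on the control arrays and 1.24, 1.73 and 1.39 on the treated arrays. It differed by -0.78, without overlap (exact permutation p = 0.1, adjusted p = 0.14). The ratio of miR-200b to miR-200c differed by -0.45 and that of miR-429 to miR-200c by -0.50, and in both the groups overlapped (exact permutation p = 0.2, adjusted p = 0.2). Without control replicate 3 the latter was -0.22. In total 5 of 7 pairs had groups without overlap, where 20.5% of all 126253 pairs of the 503 detected probes did. All of these 5 except miR-200a to miR-200c hold miR-205. On the background-subtracted scale 492 of the 503 probes had a larger difference than miR-205. The share among pairs with miR-205 was not computed, so 20.5% is not a matched comparison. The pairs share members, so they are not separate observations. Within the chromosome 1 cluster, the ratio of miR-200b to miR-200a was -0.01, 0.09 and 0.65 on the control arrays and 0.53, 0.56 and 0.63 on the treated arrays, and control replicate 3 lay above all the treated arrays.

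**Figure D3:**
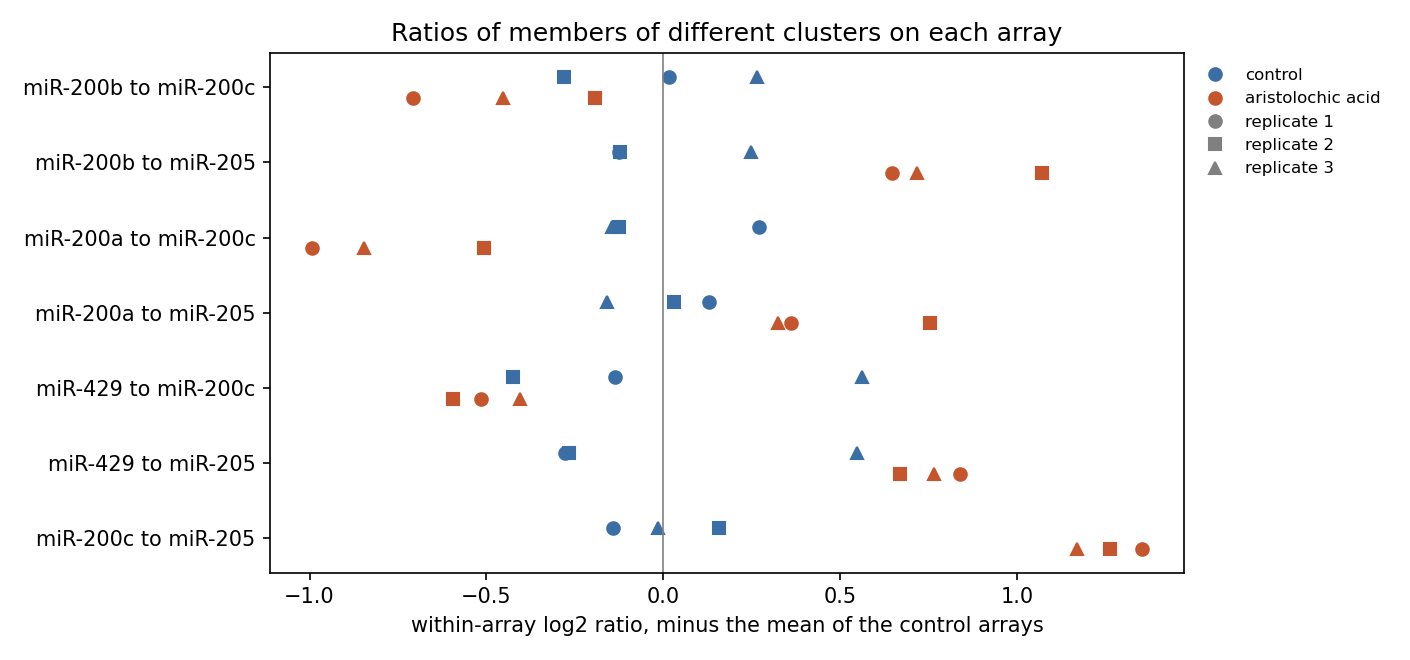
Within-array log2 ratio of the 7 pairs of members from different clusters, drawn as the difference from the mean of the control arrays, with 1 point per array. The treated arrays lie apart from the control arrays in 5 pairs, furthest for miR-200c to miR-205, and overlap with them for miR-200b to miR-200c and for miR-429 to miR-200c.

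The members called differed between the settings for normalization. Without normalization 49.6% of all probes were called higher, and 4 members were among them, namely miR-200b (0.51), miR-200c (0.43), miR-141 (0.32) and miR-429 (0.17, all log2 differences with adjusted p of 0.0328 or less in limma). MiR-205 then had -0.043 (adjusted p = 0.510). With the median of the detected probes set equal, miR-200b (0.34, adjusted p = 0.0271) and miR-200c (0.26, adjusted p = 0.0236) were called higher, with 5.12% of all probes called higher and 0.8% lower, and miR-205 had -0.22 (adjusted p = 0.0574 in limma). With the 75th percentile set equal, miR-200b (0.26) and miR-200c (0.18) were called higher, with 6.08% of all probes, and miR-205 (-0.29, adjusted p = 0.0120 in limma) lower, with 33.1% of all probes. One more setting scaled the background-subtracted intensity on the spike-ins, which also dropped the offset and limited the test to 503 probes. In it 3.98% of the probes were called higher and miR-200c was the only member called (0.89, adjusted p = 0.0222 in limma). Without an offset but with the median scaling of the printed intensities, miR-200c had 0.63 over the same probes (adjusted p = 0.129 in limma). Under every one of 19 alternatives miR-200b and miR-200c lay above 0 and miR-205 below 0, whereas miR-200a and miR-429 each changed sign in 4. MiR-141 lay above 0 in the 15 that gave it a value. It entered the test through the treated group alone, so its constant sign is not a separate observation.

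**Figure D4:**
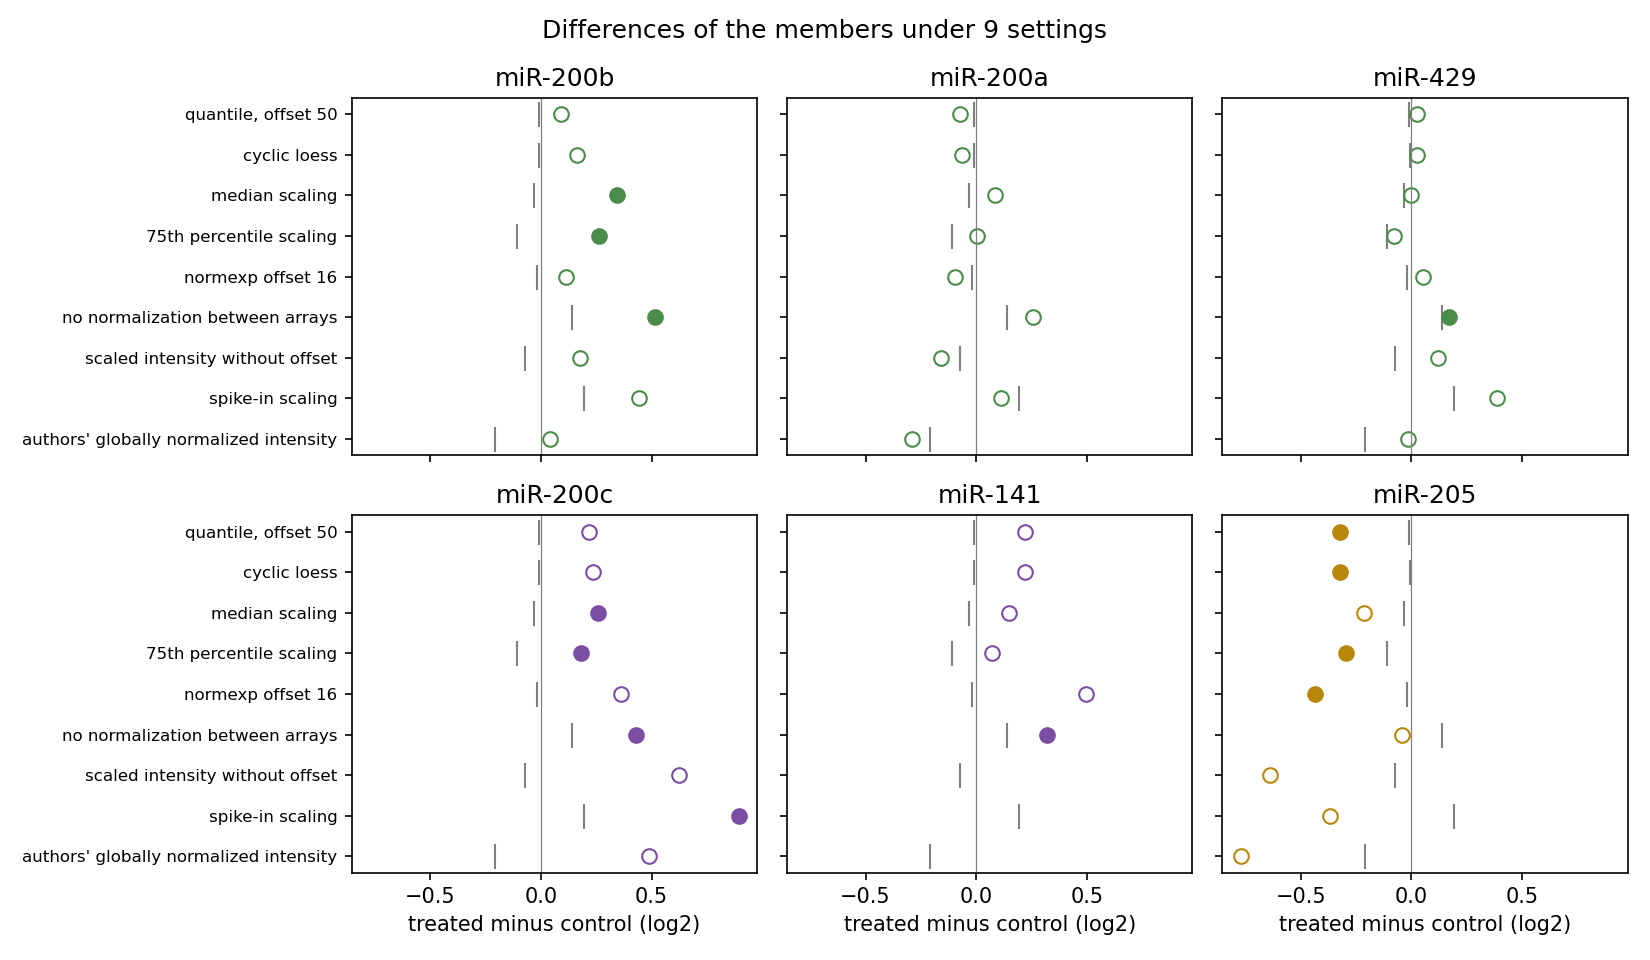
Difference of each member (treated minus control, log2) under 9 settings (the last 3 without an offset and over 503 probes), filled where the adjusted p in limma was under 0.05, with a grey bar at the median difference of all tested probes in that setting. MiR-200b and miR-200c stay to the right of the grey bar and miR-205 to its left in all 9, and miR-141 has no value in the 3 settings limited to probes detected on all 6 arrays.

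The opposite strands of the precursors, which are usually degraded, were at the limit of detection. The probes for miR-200a*, miR-200b* and miR-200c* were each detected on 1 control and 1 treated array. MiR-141* was detected on 1 control array and miR-205* on 2, neither on any treated array. None met the filter for the test. For miR-205* the scaled intensity averaged 7.57 ± 5.99 without and 1.40 ± 1.52 with aristolochic acid, and the groups overlapped on the normalized scale.

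Of 17 other miRNAs known to restrain EMT, 14 were tested, and 0 were called. The 13 of them detected on all arrays had 3 differences above 0 and 10 below, with a median of -0.04. Of these 13, 4 (30.8%) had an unadjusted p under 0.05 in limma, miR-192 and miR-215 above 0 and miR-34a and miR-183 below 0. The share was 16.3% of the 503 probes detected on all arrays and 15% of all tested probes. For miR-192, which represses ZEB2 in kidney cells, the scaled intensity averaged 24.02 ± 4.30 without and 49.5 ± 10.7 with aristolochic acid (log2 difference 0.33, adjusted p = 0.0687 in limma). MiR-215, its seed relative, had 12.8 ± 4.84 and 28.7 ± 10.08. MiR-203, which represses SNAI2, had 8.02 ± 4.43 and 16.8 ± 0.653 and was detected on 2 of 3 control arrays, so that it entered the test through the treated group alone. MiR-34a, a p53 target that represses SNAI1, had 56.1 ± 7.21 and 39.8 ± 1.72 (log2 difference -0.17, adjusted p = 0.182 in limma).

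MiRNAs known to promote EMT gave 8 tested members of 9, all 8 detected on all arrays, with 0 called. Of these 8, 2 (25%) had an unadjusted p under 0.05 in limma, against 16.3% of the 503 probes detected on all arrays. There were 3 differences above 0 and 5 below, with a median of -0.02. For miR-155 the scaled intensity averaged 70.9 ± 8.98 without and 54.4 ± 6.75 with aristolochic acid, and miR-24 had 258 ± 23.1 and 224 ± 3.54, with adjusted p of 0.249 and 0.198 in limma. MiR-221 had 338 ± 54.6 and 370 ± 30.6, and miR-23a had 774 ± 119 and 620 ± 103, with groups that overlapped on the normalized scale. The median over all tested probes was -0.01.

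Among the tested probes, those nearest to miR-205 in pattern over the 6 arrays were miR-140-3p, miR-664 and miR-4664-5p. The root mean square difference of their centred log2 intensities from those of miR-205 was 0.071, 0.073 and 0.074, where the median over 623 probes was 0.171. Their fitted log2 differences were -0.18, -0.19 and -0.27, and none passed the test. For miR-200c the nearest were miR-4485, miR-1268 and miR-378g, at 0.038, 0.040 and 0.041 with a median over probes of 0.13. Their fitted log2 differences were 0.15, 0.20 and 0.14, and none passed the test. All 6 of these probes were detected on all arrays. They were chosen for likeness over these same arrays, so the direction of their differences follows from the choice.

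The labelled cell type was checked against 7 kidney tubule miRNAs, of which 6 were detected on all arrays, as 503 of the 1719 human probes were. Of these 6, 5 had a log2 difference above 0 and 1 (miR-30a) below. Only miR-194 was called (log2 difference 0.35, adjusted p = 0.0194 in limma). MiR-204, the remaining kidney tubule miRNA, was detected on 2 control arrays and on no treated array. Markers of other cell types were detected in part. Of the blood markers, miR-142-3p and miR-142-5p were detected on all arrays and the erythroid miR-451 on none. Of the endothelial markers, miR-126 was detected on all arrays and miR-126* on none, and of the neural markers, miR-9 and miR-128 on all and miR-124 on none. The stromal miR-145 and miR-214 were detected on all arrays and miR-199a-3p (on 1 probe with miR-199b-3p) on none. The muscle markers miR-1 and miR-133a were detected on all arrays, and the liver marker miR-122 on 1 control and 2 treated arrays. None of the blood, endothelial, muscle, neural, stromal or liver markers passed the test. The summed scaled intensity of the 5 stromal markers was 27.0 to 51.6 in control and 25.7 to 39.7 in treated samples, and that of the 5 blood markers was 111 to 118 and 102 to 120. The samples are bulk RNA, so fewer cells with a miRNA and less of it per cell cannot be told apart.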

How the data were processed

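MiRNA levels were measured in 3 control and 3 treated HK-2 samples, with 500 ng of total RNA labelled with Cy5 per the labels' protocols. A locked-nucleic-acid array labelling kit was used; the scanner and its software are not given in the sources used here. Per the file headers, the authors deposited raw spot intensity, background-subtracted intensity, an average and coefficient of variation (a ratio, for control probes, not used) and a globally normalized intensity. The series' value table held the same normalized values. Background-subtracted intensity was the raw intensity minus 1 constant per array, and probes for which the authors kept such a value counted as detected.

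Raw intensities of all 3136 spots were corrected by normexp (offset 50). The 1719 human probes were quantile normalized, 2 marked spots were left out, and a probe was tested if every array of the control group, or every array of the treated group, detected it (625 probes). The model had no covariate beside treatment (limma 3.58.1, R 4.3.3). Steps were tested on simulated data that held no brightness difference between the groups, so that test does not cover such a difference. Ratios within arrays and array brightness were compared by exact permutation tests, 2-sided. Array names were matched to RefSeq arms by the usual naming (the 3′ arm for the miR-200 family and the 5′ arm for miR-205). The members, lists and alternatives were chosen with earlier results of these data known. The text names the 6 members, in each EMT list those called and otherwise at most 4 with the smallest p, and the 3 probes most alike. The number of arrays limits the precision. The labels do not say whether replicate numbers mark a shared culture or day. Deviations from the group means of same-numbered samples correlated at -0.14, -0.18 and 0.01 over 624 probes. With so few samples these values cannot decide whether the samples were paired.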

Additional observations from a re-analysis of the deposited data

How the results depend on the processing

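The 7 ratios between clusters kept their sign under all 8 alternatives tried for each, among them those without 1 array, but their size moved by over 1.5 times. The ranges were 0.54 to 1.34 for miR-200c to miR-205, 0.41 to 0.94 for miR-200b to miR-205, 0.35 to 1.03 for miR-429 to miR-205, 0.25 to 0.56 for miR-200a to miR-205, -0.92 to -0.29 for miR-200a to miR-200c, -0.59 to -0.094 for miR-200b to miR-200c and -0.72 to -0.19 for miR-429 to miR-200c. In each of the 7 the smallest size came from a setting with an offset. For miR-200b to miR-200c it was -0.094 with the offset of 16 and no normalization between arrays. With the larger offset of the main test and quantile normalization it was -0.12. The settings with an offset also used the normexp correction and differed in normalization, so the effect of the offset alone was not isolated. Where the offset was dropped and the test was limited to the 503 probes with 6 detected values, 0 members passed on the scaled intensities and 0 on the authors' normalized values, where miR-205 had -0.64 (adjusted p = 0.0891 in limma) and -0.77 (adjusted p = 0.884) and miR-429 had -0.015 on the latter. MiR-141 has no value in the 4 settings limited to such probes. The cause of these shifts was not tested.

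The count of called probes was 6, against 37 with median scaling, of which 32 were higher, 245 with scaling to the 75th percentile, of which 38 were higher, 310 without normalization, of which 310 were higher, 20 on the spike-ins (without an offset, over 503 probes), 1 on the authors' values, 10 with trend and robust and 11 with array weights. Leaving out 1 array gave 3 to 5, with 3 without control replicate 1 and 3 without aristolochic acid replicate 2. The count of called members was 1, against 2, 3 and 4 with those first 3 scalings, 2 with trend and robust, 2 with array weights and 0 to 1 without 1 array. The counts without normalization and with trend and robust include miR-141, which entered the test through the treated group alone. Over all tested probes the median difference was -0.01, and -0.11 with the 75th percentile, 0.14 without normalization, 0.20 on the spike-ins and -0.21 on the authors' values.

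With the 75th percentile the differences were 0.26 for miR-200b (adjusted p = 0.0289 in limma), 0.18 for miR-200c (0.0258), 0.0037 for miR-200a and -0.079 for miR-429. With median scaling they were 0.34 for miR-200b, 0.26 for miR-200c, 0.083 for miR-200a and -0.22 for miR-205. Without normalization they were 0.51 for miR-200b, 0.43 for miR-200c, 0.32 for miR-141, 0.17 for miR-429, 0.25 for miR-200a and -0.043 for miR-205. On the spike-ins they were 0.89 for miR-200c, 0.44 for miR-200b, 0.39 for miR-429 and 0.11 for miR-200a. MiR-205 had -0.37 on the spike-ins (adjusted p = 0.318 in limma, range over its alternatives 0.00702 to 0.884). MiR-200c passed with array weights (0.23, adjusted p = 0.0471 in limma) and miR-141 with trend and robust (0.22, adjusted p = 0.0266 in limma). MiR-141 entered the test through the treated group alone, so its pass and its detection there are not separate observations. Without 1 array the difference of miR-200b ran from 0.028 to 0.15, that of miR-200a from -0.15 to -0.022, that of miR-200c from 0.19 to 0.25, that of miR-141 from 0.17 to 0.26, that of miR-429 from -0.0029 to 0.087 and that of miR-205 from -0.35 to -0.29. With the replicate number as a block, 4 probes and 0 members passed, and miR-205 had -0.32 (adjusted p = 0.146). Samples of 0 of the 3 numbers correlated best with their own number.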
